A study of Mus musculus with 10 samples.

Results

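Ms4a1, Cd40, Cd22, Cd72, Cd37, Faim3, Il2ra and Cd2 are 8 genes for surface proteins of B lymphocytes, and are described here over 10 RNA-sequencing libraries. They were chosen by symbol, as the rows that carry these names among 22923 gene symbols in each library. The libraries came from C57bl/6 mice at 4 weeks of age and covered CD4+CD8+ thymocytes, quiescent or cycling, and from the bone marrow large pre-B cells, small pre-B cells and mature granulocytes. Each population was taken once from a pool of 2 control mice (Dyrk1a flox/flox, Mx1-Cre-) and once from a pool of 2 mice of the genotype Dyrk1a -/-, Mx1-Cre+, labelled CKO, so that every group held 1 library. All 10 libraries share the strain and the age. The Mx1 promoter is interferon-inducible and active in many cell types, so that deletion with Mx1-Cre is not restricted to B cells. Sorting used surface stains and dyes for nucleic acids that the labels do not name, so whether the protein of any of the 8 genes was used to sort these cells is not known.

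B cell precursors in the bone marrow divide as large pre-B cells under signals from interleukin-7 and the pre-B cell receptor. They then stop dividing, become small pre-B cells and rearrange their light chain genes. Surface proteins of the B cell are gained in steps along this path, and CD25 (the product of Il2ra) and CD2 are used as markers of the small pre-B stage in the mouse. CD22 and CD72 carry inhibitory motifs that restrain B cell receptor signalling, CD40 receives help from T cells, and CD20 (the product of Ms4a1) is the target of therapeutic antibodies against B cells.

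Promoters from RefSeq (GRCm38.p6) were matched for 5 of the 8 genes, Cd22, Cd72, Cd37, Faim3 and Il2ra. The 250 bases before the start are printed 5′ to 3′ on the gene's own strand for 3 genes that rose from the large to the small pre-B stage by different amounts and for Cd22, which did not pass that test. Capitals mark matches, on either strand, to GAGGAA (the core letters bound by PU.1), to CAGGTG (an E2A E-box) and to the palindromic EBF and the NF-kB motif.
Faim3 promoter, chr1:130865527-130865776, plus strand: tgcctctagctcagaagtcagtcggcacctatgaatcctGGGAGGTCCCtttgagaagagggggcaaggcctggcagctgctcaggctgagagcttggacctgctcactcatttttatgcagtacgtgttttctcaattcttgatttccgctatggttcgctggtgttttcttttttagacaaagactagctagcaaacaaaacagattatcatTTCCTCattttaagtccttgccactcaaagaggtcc
Il2ra promoter, chr2:11642542-11642791, plus strand: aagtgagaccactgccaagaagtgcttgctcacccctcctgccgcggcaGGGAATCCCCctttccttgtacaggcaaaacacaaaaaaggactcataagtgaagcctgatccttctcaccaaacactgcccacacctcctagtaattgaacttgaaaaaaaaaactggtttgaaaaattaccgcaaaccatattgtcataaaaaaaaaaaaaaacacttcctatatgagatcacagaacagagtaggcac
Cd72 promoter, chr4:43454627-43454876, minus strand: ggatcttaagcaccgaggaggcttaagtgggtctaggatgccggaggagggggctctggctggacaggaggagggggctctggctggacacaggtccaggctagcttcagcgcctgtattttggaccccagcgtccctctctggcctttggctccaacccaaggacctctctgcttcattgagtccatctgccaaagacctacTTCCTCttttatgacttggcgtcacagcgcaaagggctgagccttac
Cd22 promoter, chr7:30879029-30879278, minus strand: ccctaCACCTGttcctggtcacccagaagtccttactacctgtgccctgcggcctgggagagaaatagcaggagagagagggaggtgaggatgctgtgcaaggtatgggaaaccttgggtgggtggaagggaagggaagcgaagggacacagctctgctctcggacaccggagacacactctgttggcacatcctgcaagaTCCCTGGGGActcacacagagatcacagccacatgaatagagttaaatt

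Counted from the start of the gene, the PU.1 letters begin 36 bases before it in Faim3 and 47 bases before it in Cd72, on the strand opposite to the gene in both, and 168 and 23 bases before it in Cd37. Of 32536 promoter windows of the same length, 23.4% hold these letters. The NF-kB letters begin 211 bases before the start in Faim3, where the motif is matched on both strands, and 201 bases before it in Il2ra. Of the windows, 17.7% hold a match to this motif. Cd22 is the only one of the 5 with the EBF letters, 49 bases before the start, which 0.787% of windows hold. Cd22 and Cd37 hold the E2A E-box, at 245 and 175 bases before the start (17.3% of windows), and those letters are also a match to the general E-box CANNTG, which 4 of the 5 and 66.2% of windows hold. Of the other motifs searched, CACCC (KLF) was found in Cd22, Cd37 and Il2ra (52.1% of windows) and TGGGAA (Ikaros) in Cd22 (21.6%). No match in the 5 windows was found to ATGCAAAT (octamer, 1.62% of windows), GTAAACA (FOXO, 3.17%), TTCNNNGAA (STAT, 7.04%), TATAAA (12.3%), CCAAT (33.8%) or the IRF motif (2.98%). RefSeq and GENCODE starts differ, so that the windows of Cd22 and Cd37 lie inside the genes as GENCODE gives them, and those of Faim3 and Cd72 do so in part. A match of letters is a description of the sequence and not a binding site.

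In build mm10 with the GENCODE vM21 annotation, Ms4a1 lies on chromosome 19 from 11249675 to 11266241, Cd40 on chromosome 2 from 165055627 to 165072948, Cd22 on chromosome 7 from 30865402 to 30880342 and Cd72 on chromosome 4 from 43446462 to 43454628. Cd37 lies on chromosome 7 from 45233632 to 45239115, Faim3, whose current symbol is Fcmr, on chromosome 1 from 130865669 to 130880791, Il2ra on chromosome 2 from 11642807 to 11693193 and Cd2 on chromosome 3 from 101275899 to 101287939. Cd40, Faim3 and Il2ra are on the plus strand and the others on the minus strand. Each value below is for the whole gene, and isoforms, exons and introns were not separated. Cd72 overlaps Tesk1 on the opposite strand, which stood at 5.92 to 18.1 FPKM in the lymphoid libraries, and Cd37 overlaps Tead2, at no more than 0.731 FPKM. FPKM count sequenced fragments per kilobase of a transcript, relative to all fragments of that library. Whether the counting used the read strand is not known.

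Summed over genes, a lymphoid library held 360394 to 431868 FPKM, control granulocytes 830006 FPKM and CKO granulocytes 1074258 FPKM, and the read depth is not known. Dyrk1a was at 31.2 to 37.4 FPKM in control and at 34.4 to 44.7 FPKM in CKO libraries, not lower in any population. Which exons were deleted is not stated in the labels, on which all directions below rest. The Y-linked gene Ddx3y, named after its values were seen, stood at 0 to 0.039 FPKM in the 5 control libraries and at 7.26 to 16.7 FPKM in the 5 CKO libraries, so that the genotype and a difference in the sex of the pooled mice cannot be told apart. The population labels were checked with marker genes. Pax5 stood at 86.8 to 184 FPKM in the 4 pre-B libraries, Cd3e at 196 to 311 FPKM in thymocytes and at no more than 0.397 FPKM in pre-B cells, and Rag1 was higher and Mki67 lower in small than in large pre-B cells of either pool.

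The inhibitory coreceptors Cd22 and Cd72 were present at both pre-B stages of both pools. Cd22 stood at 26.1 and 18.2 FPKM in control and CKO large pre-B cells and at 45.6 and 20.4 FPKM in small pre-B cells. Elsewhere it was at 0.39 and 0.301 FPKM in granulocytes, at 0.0558 and 0.0236 FPKM in the cycling and at 0 and 0.0073 FPKM in the quiescent thymocyte pair, in the order control and CKO. The ranges of large and small pre-B cells overlapped, and both lay far above the other populations. Cd72 was the more abundant, with 189 and 113 FPKM in large and 519 and 280 FPKM in small pre-B cells. It was at 2.40 and 2.47 FPKM in granulocytes, 1.49 and 1.75 FPKM in quiescent and 0.657 and 1.48 FPKM in cycling thymocytes. For Cd72 no population overlapped another, although CKO cycling and control quiescent thymocytes nearly met.

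Ms4a1, the CD20 gene, and Cd37, a tetraspanin gene of leukocytes, differed in how far they reached beyond the B lineage. Ms4a1 stood at 3.61 and 2.06 FPKM in control and CKO large pre-B cells and at 79.0 and 20.7 FPKM in small pre-B cells. In the other 6 libraries it lay between 0 and 0.398 FPKM, highest in granulocytes and listed at 0 in CKO quiescent thymocytes. The small pre-B libraries were thus the 2 high ones, and no population overlapped another. Cd37 was expressed in every population, at 225 and 233 FPKM in large pre-B cells, 615 and 407 FPKM in small pre-B cells and 448 and 376 FPKM in granulocytes. Quiescent thymocytes held 62.2 and 47.4 FPKM of it and cycling thymocytes 28.0 and 27.0 FPKM. The ranges of small pre-B cells and granulocytes overlapped for Cd37, and the other 3 populations lay below them in separate ranges.

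Cd40, a receptor of the tumour necrosis factor receptor family, and Faim3, which encodes an Fc receptor for IgM, were low in large pre-B cells and clearly present in small pre-B cells. Cd40 stood at 1.32 and 0.844 FPKM in control and CKO large pre-B cells and at 15.0 and 14.3 FPKM in small pre-B cells. It was at 0.69 and 0.216 FPKM in granulocytes and at no more than 0.0928 FPKM in thymocytes, where the ranges of cycling and quiescent cells overlapped. Among the 8 genes, Cd40 had the closest values in control and CKO small pre-B cells. Faim3 stood at 4.07 and 1.36 FPKM in large and 61.1 and 18.6 FPKM in small pre-B cells. It was at 0.245 and 0.319 FPKM in granulocytes, 0.186 and 0.0702 FPKM in cycling thymocytes and listed at 0 in both quiescent thymocyte libraries. Its control value was the higher in both pre-B stages, and no population overlapped another.

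Il2ra encodes the alpha chain of the interleukin-2 receptor, and Cd2 an adhesion receptor also made by T and natural killer cells. Il2ra stood at 14.2 and 3.53 FPKM in control and CKO large pre-B cells and at 85.2 and 27.4 FPKM in small pre-B cells. Thymocytes held 1.16 to 2.90 FPKM, with overlapping ranges of cycling and quiescent cells, and granulocytes 0.162 and 0.204 FPKM. The control library was the higher in both pre-B and both thymocyte populations. Cd2 stood at 14.1 and 5.64 FPKM in large pre-B cells and at 101 and 22.7 FPKM in small pre-B cells. Granulocytes held 1.09 and 0.79 FPKM of it, the cycling thymocyte pair 41.8 and 37.0 FPKM and the quiescent pair 44.7 and 28.9 FPKM. For Cd2 the small pre-B range thus held both thymocyte ranges, while large pre-B cells lay below thymocytes.

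**Figure D1:**
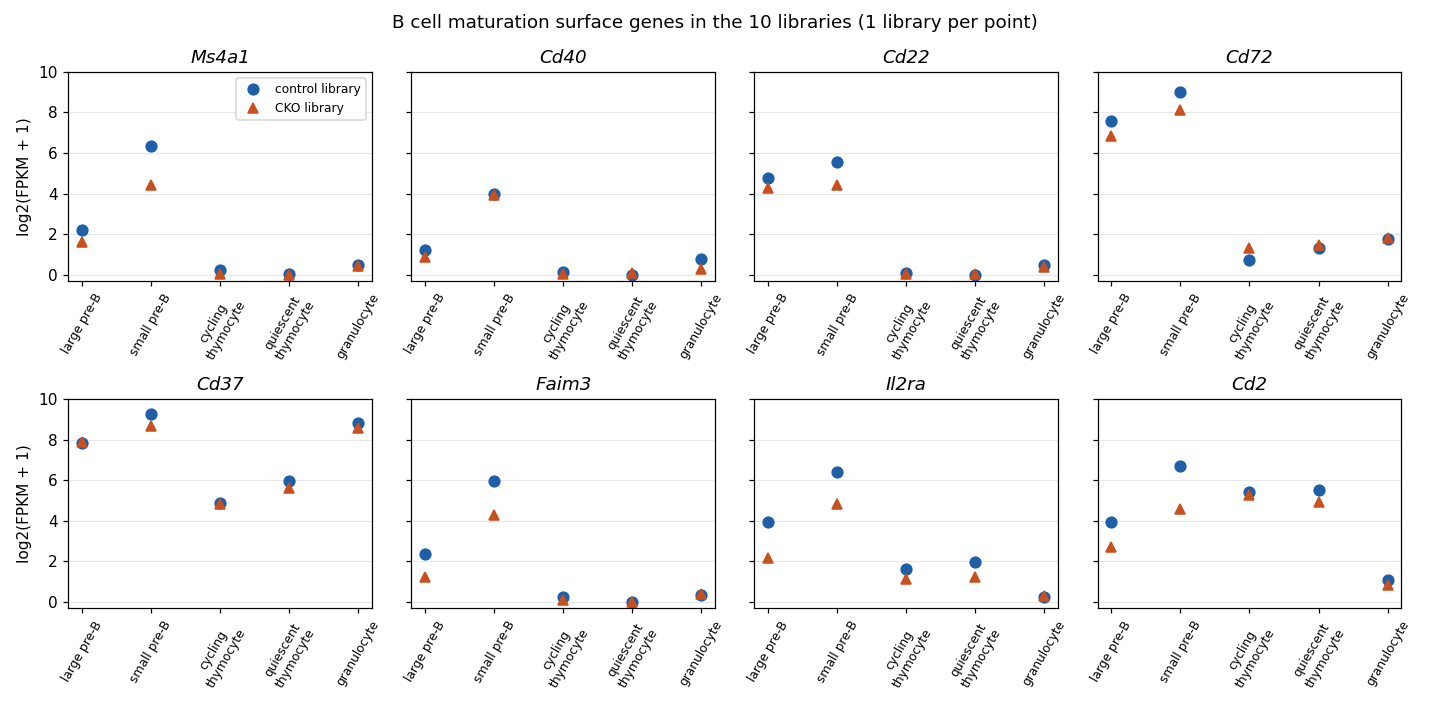
Level of each of the 8 genes as log2(FPKM + 1) on the vertical axis in 5 populations, with 1 point per library (circles control, triangles CKO). Small pre-B cells of the control pool hold the highest value of every gene, Cd37 and Cd2 are also high outside pre-B cells, and the CKO triangle lies below the control circle in small pre-B cells for all 8 genes.

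To set the 2 lineages against each other, log2(FPKM + 1) of the 8 lymphoid libraries was fitted with limma across 11126 genes that reached 1 FPKM in 2 libraries, with a stage and a genotype effect for each lineage and Benjamini-Hochberg adjustment. A gene was called at an adjusted p below 0.05. All 8 genes passed the filter, although Ms4a1, Cd40, Cd22 and Faim3 passed through pre-B libraries only and so had to differ between lineages. Their differences, 3.57, 2.46, 4.72 and 3.37 on the log2 scale in that order, are given as a description. Of the other 4 genes, 3 were called higher in pre-B cells, as were 38.3% of all genes. They were Cd72 (6.69, SE 0.10, limma adjusted p = 1.07e-06), Cd37 (3.10, SE 0.13, limma adjusted p = 1.89e-05) and Il2ra (2.86, SE 0.09, limma adjusted p = 8.40e-06). Cd2 was called lower in pre-B cells (−0.80, SE 0.17, limma adjusted p = 0.0076), as were 35.5% of all genes, and this call was lost with 1 genotype effect shared by the 4 populations. The 2 pools are not animals measured separately, so these p values measure the spread that stage and genotype leave among the libraries and not the spread between mice.

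From the large to the small pre-B stage, 7 of the 8 genes rose, against 25.6% of all genes called higher. Their median difference, with Cd22 included, was 2.44 on the log2 scale, beside 0.04 for all genes tested. Ms4a1 rose by 3.47 (SE 0.30, limma adjusted p = 0.0027) and Faim3 by 3.33 (SE 0.17, limma adjusted p = 0.0018), which placed them 2 and 4 from the top of 11126 genes. Cd40 rose by 2.92 (SE 0.14, limma adjusted p = 0.0018), Il2ra by 2.57 (SE 0.13, limma adjusted p = 0.0018) and Cd2 by 2.30 (SE 0.24, limma adjusted p = 0.0039). Cd72 and Cd37, the genes with the highest levels in large pre-B cells, rose less, by 1.38 (SE 0.14, limma adjusted p = 0.0036) and 1.12 (SE 0.18, limma adjusted p = 0.0078). Cd22 differed by 0.47 (SE 0.18, limma adjusted p = 0.078) and was not called. The libraries are bulk samples, so more cells with a transcript and more transcript per cell cannot be told apart.

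The small pre-B level of all 8 genes was above the large pre-B level in both pools. Ms4a1 was 21.9-fold higher in small than in large pre-B cells in control and 10.0-fold in CKO, Faim3 15.0-fold and 13.7-fold, Cd40 11.4-fold and 16.9-fold, and Il2ra 5.98-fold and 7.76-fold. Cd2 was 7.20-fold and 4.03-fold higher, Cd72 2.74-fold and 2.49-fold, Cd37 2.73-fold and 1.75-fold, and Cd22 1.75-fold and 1.12-fold. The ratio was therefore larger in control for 6 genes and larger in CKO for Cd40 and Il2ra. With 1 library per stage and genotype this difference between pools could not be tested, and it forms part of the residual spread of the fit. At least 2-fold on the scale of FPKM + 1, with 5 FPKM or more in the higher library, 7 of the 8 genes were higher in control (9.98% of all genes) and 6 of the 8 in CKO (5.71% of all genes), where Cd37 and Cd22 did not reach that ratio. The calls depended on the control libraries of the pair. Without control large pre-B cells none of the 8 genes was called, without control small pre-B cells only Ms4a1, Cd40 and Faim3 were, and without any 1 of the other 6 libraries 7 were.

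**Figure D2:**
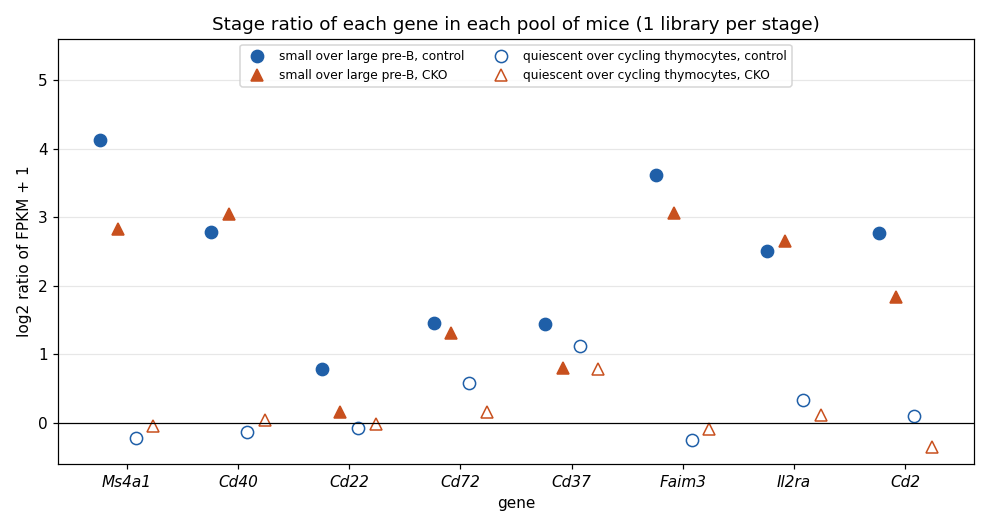
Log2 ratio of FPKM + 1 between stages for each gene (horizontal axis), with 1 point per pool of mice: filled symbols are small over large pre-B cells, open symbols quiescent over cycling thymocytes, circles control and triangles CKO. The filled symbols lie above 0 for all 8 genes, and for each gene and pool the open symbol lies nearer to 0 than the filled one, least so for Cd37.

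**Figure D3:**
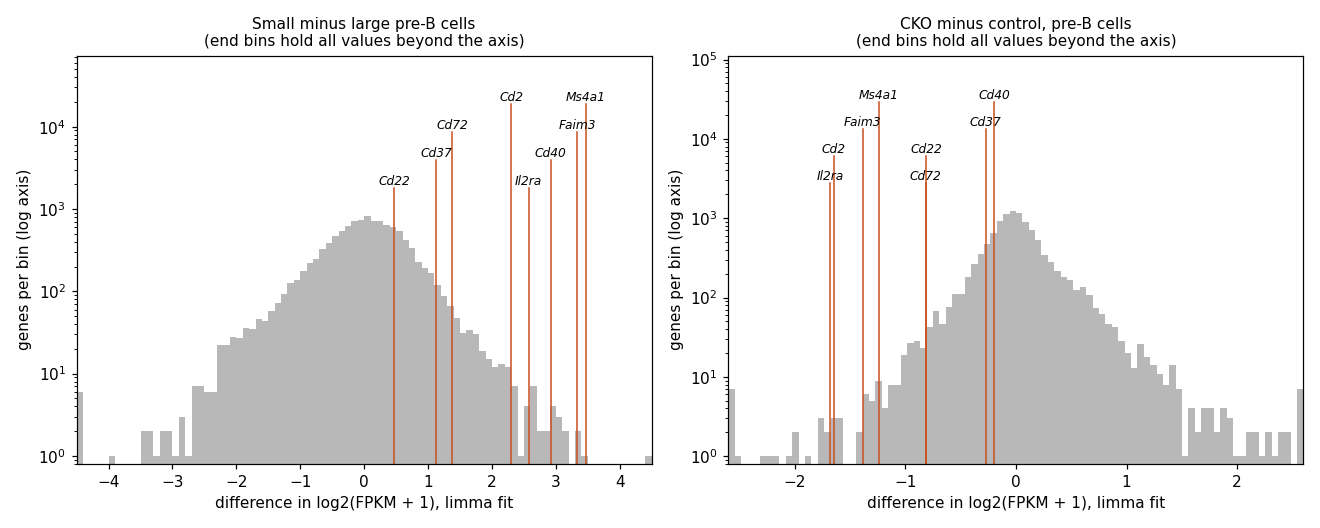
Number of genes (vertical log axis) by log2 difference (horizontal axis) in the limma fit of 11126 genes, for small minus large pre-B cells on the left and CKO minus control in pre-B cells on the right, with vertical lines at the 8 genes. On the left Ms4a1, Faim3, Cd40, Il2ra and Cd2 stand in the upper tail and Cd22 at 0.47, and on the right Il2ra, Cd2, Faim3 and Ms4a1 stand in the lower tail and Cd40 at −0.20.

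The other genes of the pathways to which the 8 belong were read from lists. From the large to the small pre-B stage, 25.6% of all genes were called higher and 21.8% lower. Of 30 further surface genes of maturing B cells, 23 were tested, 20 rose from the large to the small pre-B stage and none fell (median 1.36). They included Fcrla (1.44), Siglecg (1.38), the invariant chain gene Cd74 (1.36) and S1pr1, a receptor that guides the exit of lymphocytes from tissues (2.40). Of 18 tested genes downstream of CD40, 16 rose and none fell (median 0.74), among them the NF-kB subunit genes Nfkb2 (2.26) and Nfkb1 (0.48), the inhibitor gene Nfkbia (1.60) and Birc3 (2.06). Cd40lg, the gene of its ligand, did not pass the filter. The same list also rose from cycling to quiescent thymocytes, where 11 of the 18 were called higher and none lower (median 0.57) and Cd40 was at no more than 0.0928 FPKM. Of all genes, 25.2% were called higher at that step. The difference between the 2 stage effects was called for 4 of the 18, all higher in pre-B cells, against 3.22% of all genes called higher.

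Of 9 tested genes of interleukin-2 receptor signalling, 4 rose and 1 fell. The common gamma chain gene Il2rg rose by 0.80 and the feedback inhibitor Socs1 by 2.09, while the beta chain gene Il2rb fell by 1.42. Il2rb is also a marker of natural killer cells and stood at 6.45 and 15.2 FPKM in control and CKO large pre-B cells and at 0.797 and 8.40 FPKM in small pre-B cells. Of 15 tested genes that act with the inhibitory coreceptors, 9 rose and none fell (median 0.57), including Lyn (1.24), Ptpn6 (0.52) and Syk (1.27), kinase and phosphatase genes of B cell receptor signalling. Cd22 itself was not called, although these partners were.

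The shares called over all genes were 25.6% higher and 21.8% lower. Of 15 other MS4A family genes 5 were tested, 3 fell and none rose (median −1.18), led by the myeloid gene Ms4a3 (−3.34), which stood at 28.0 and 11.0 FPKM in large and 1.07 and 0.642 FPKM in small pre-B cells. Of 15 other tetraspanin genes 4 rose and 4 fell, close to those shares, with Cd53 at 0.90 and Tspan4 at −1.88. Of 14 genes of the CD2 family and its signalling partners 4 rose and 2 fell, also near them. The CD2 ligand gene Cd48 differed by 0.15 (SE 0.10, limma adjusted p = 0.27) and Slamf6 rose by 0.79.

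In thymocytes the same step from cycling to quiescent cells was accompanied by a rise of 1 of the 8 genes, against 25.2% of all genes called higher. This was Cd37 (0.96, SE 0.18, limma adjusted p = 0.012), and the call was lost without control cycling or without control quiescent thymocytes. None of the 8 fell. The differences of the other 7 lay between −0.17 for Faim3 and 0.37 for Cd72, and with 1 FPKM added, values near 0 can hardly differ on this scale. The difference between the 2 stage effects was called for 3 of the 4 genes with measurable levels in thymocytes, against 3.22% of all genes. It was 2.42 for Cd2 (limma adjusted p = 0.028), 2.35 for Il2ra (limma adjusted p = 0.015) and 1.01 for Cd72 (limma adjusted p = 0.048), and Cd37 was not called (0.17, 95% interval −0.47 to 0.81). For Ms4a1, Faim3, Cd40 and Cd22 the thymocyte effect was held near 0 by their levels, so that differences of 3.60, 3.51, 2.97 and 0.52 restate the pre-B values. None of these 3 calls remained when any 1 library was left out. None of the 8 genes was called without the filter on low values or with 1 genotype effect shared by the populations, and the call of Cd72 was also lost with a pseudocount of 0.1 and after rescaling.

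In pre-B cells the CKO libraries held less of most of the 8 genes. In small pre-B cells the CKO level was 22.4% of control for Cd2, 26.2% for Ms4a1, 30.4% for Faim3 and 32.1% for Il2ra. It was 44.8% for Cd22, 54.0% for Cd72, 66.1% for Cd37 and 95.2% for Cd40. All 8 were thus lower, with Cd40 nearest to its control value. In large pre-B cells Il2ra stood at 24.8% of control, Faim3 at 33.3%, Cd2 at 40.0%, Ms4a1 at 57.1%, Cd72 at 59.5%, Cd40 at 63.9%, Cd22 at 69.7% and Cd37 at 103%. By the rule of at least 5 FPKM and a 2-fold ratio, 5 of the 8 genes were lower in small pre-B cells (1.78% of all genes), namely Ms4a1, Cd22, Faim3, Il2ra and Cd2. In large pre-B cells 2 of the 5 genes with enough signal, Il2ra and Cd2, were lower (0.972% of all genes).

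On the log2 scale and over both pre-B stages, Il2ra fell by 1.68 (SE 0.13, limma adjusted p = 0.016) and Faim3 fell by 1.39 (SE 0.17, limma adjusted p = 0.042), each lower in 2 of 2 pairs of libraries. These 2 of the 8 genes were called lower, against 0.683% of all genes. Cd2 differed by −1.65 (SE 0.24, limma adjusted p = 0.051), Ms4a1 by −1.24 (SE 0.30, limma adjusted p = 0.13), Cd72 by −0.82 (SE 0.14, limma adjusted p = 0.063) and Cd22 by −0.81 (SE 0.18, limma adjusted p = 0.10), and none of these was called. The 95% interval of Cd40 ran from −0.54 to 0.14 and that of Cd37 from −0.73 to 0.18. The median over the 8 was −1.03, beside −0.01 for all genes tested. None of the 8 was called when any 1 library was left out, without the filter on low values or with 1 shared genotype effect, whereas a fit to the 4 pre-B libraries alone, chosen after seeing the data, called 6 of the 8. The call of Faim3 was also lost with either other pseudocount, with a filter at 5 FPKM and after rescaling, and that of Il2ra was not. With a pseudocount of 5, Cd72 was called in place of Faim3.

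**Figure D4:**
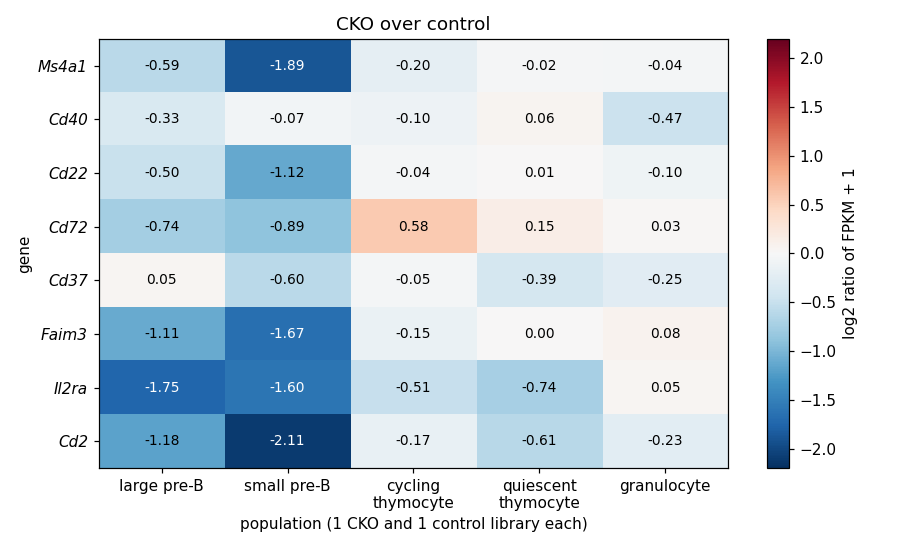
Log2 ratio of FPKM + 1 of the CKO over the control library for each gene (rows) and population (columns), with 1 library on each side of a ratio and the value printed in each cell. The darkest blue cells, the lowest ratios, are in the 2 pre-B columns, with Cd2 in small pre-B cells at −2.11 and Cd40 there at −0.07.

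Of all genes, 0.683% were called lower and 68 of 11126 higher in CKO pre-B cells. The lists were chosen with earlier results of these data known. Among the listed genes, 4 of the 23 tested surface genes of maturing B cells were lower in CKO pre-B cells and none higher (median −0.45). These were Cd38 (−1.78), the inhibitory Fc receptor gene Fcgr2b (−1.07), Fcrla (−1.12) and the chemokine receptor gene Ccr7 (−0.93), of which Cd38, Fcgr2b and Ccr7 are named here after their values were seen. Genes downstream of CD40 were called in neither direction (18 tested, median −0.17). The genes that define the pre-B cell were not all lower. In small pre-B cells Ebf1 stood at 91.6% and Blnk at 88.9% of control, Cd79a at 54.5% and the surrogate light chain gene Igll1 at 410%. The levels of Cd2, Ms4a1, Faim3 and Il2ra, at 22.4% to 32.1% of control, thus stood below those of these lineage genes, and a gene of the preceding stage was higher.

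Outside pre-B cells no genotype difference of the 8 genes passed the test or the rule of size, and Ms4a1, Cd40, Cd22 and Faim3 were too near 0 there to show one. None was called in thymocytes (0.0539% of all genes were called lower), where Il2ra differed by −0.62 (SE 0.13, limma adjusted p = 0.13) and stood below control in each of 2 pairs. Il2ra was 2.16-fold lower in CKO quiescent and 1.80-fold lower in CKO cycling thymocytes, at levels of 1.16 to 2.90 FPKM. Cd2 was 1.55-fold lower in CKO quiescent and Cd72 2.26-fold higher in CKO cycling thymocytes. At an unadjusted p under 0.05, Il2ra was lower and Cd72 higher (0.36), a level that 1853 of 11126 genes reached in either direction. By the rule of 5 FPKM and 2-fold, none of the 2 genes with enough signal, Cd37 and Cd2, was lower in cycling (0.58% of all genes) or quiescent thymocytes (1.6% of all genes). In granulocytes only Cd37 had enough signal, at 448 and 376 FPKM, and did not reach the ratio (1.76% of all genes). The difference between the genotype effects of pre-B cells and thymocytes was called for none of the 8 in the limma fit (0.00899% of all genes were called lower). An unadjusted p under 0.05 was found for 6 of the 8, beside 1597 of 11126 genes in either direction. The largest values of this difference among the 8 were −1.31 for Faim3, −1.26 for Cd2 and −1.18 for Cd72.

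Markers of other cells moved with these results in the pre-B libraries. All 10 markers of natural killer and mature T cells were above 0 in each, and they summed to 67.2 and 131 FPKM in control and CKO large pre-B cells and to 10.8 and 96.5 FPKM in small pre-B cells. In the limma fit 3 of the 10 rose and none fell in CKO pre-B cells, against 68 of 11126 genes called higher. All 10 differences were positive (median 1.43), as were those of 5282 of 11126 genes. Gzma stood at 2.03 and 23.3 FPKM in the small pre-B pair. The 8 markers of plasmacytoid dendritic cells summed to 151 and 172 FPKM in large and 159 and 488 FPKM in small pre-B cells, and none was called. Siglech, a defining marker of these cells, stood at 2.25 and 41.5 FPKM in the small pre-B pair. The 10 cell cycle genes summed to 2528 and 2817 FPKM in large and 622 and 1346 FPKM in small pre-B cells. The part of these lists in the lower levels of the 8 genes in CKO small pre-B cells was not tested.

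The list of granulocyte markers, 12 of 12 above 0, summed to 1018 and 508 FPKM in large and 627 and 473 FPKM in small pre-B cells. In the limma fit all 12 had negative genotype differences, as did 5844 of 11126 genes. Of the 12, 1 was called lower, against 0.683% of all genes. From the large to the small stage 8 of the 12 rose and 4 fell. Among those that fell were Mpo (−5.23), Elane (−4.81) and Prtn3 (−4.95). The most abundant of the 12 in pre-B libraries were S100a8, Mpo and S100a9, at means of 170, 134 and 121 FPKM. Ltf, Camp and Lcn2, granule genes among the 12, stood in pre-B libraries at 0.0218% to 0.181% of their lower granulocyte value. Ngp, S100a8 and S100a9 were listed at 0 in control granulocytes, so no such share is given for them. For Mpo, Elane, Prtn3, Mmp8, Mmp9 and Csf3r the share was not computed, so Ltf, Camp and Lcn2 do not stand for the whole list. Cd37, the most abundant of the 8 genes in granulocytes, stood at 59.8% to 163% of its lower granulocyte value. The part of granulocyte transcripts in the rise of Cd37 was not tested. Markers of CD4+CD8+ thymocytes summed to 2.29 to 6.65 FPKM in the 4 pre-B libraries. In CKO small pre-B cells 2 of these 10 markers, Cd3e and Themis, were listed at 0 and 2 reached 1 FPKM. Cd2 was at 22.7 FPKM there, and the markers of natural killer and mature T cells summed to 96.5 FPKM. The part of either list in the level of Cd2 was not tested. The 8 markers of mature B cells summed to 98.0 and 79.5 FPKM in large and 206 and 156 FPKM in small pre-B cells. Of the 6 tested, 5 rose from the large to the small stage and none fell (median 1.39), namely Cd55 (2.39), Fcrl1 (2.37), Bank1 (1.42), Tnfrsf13c (1.35) and Cxcr5 (1.19). At this step 25.6% of all genes were called higher and 21.8% lower. In control and CKO small pre-B cells, in that order, the CD23 gene Fcer2a reached only 1.15 and 0.158 FPKM, and the complement receptor gene Cr2 0.206 and 0.0459 FPKM. The part of this list in the rise of the 8 genes was not tested. Markers of dendritic cells and macrophages summed to 21.0 and 8.07 FPKM in control and CKO large and to 1.89 and 8.40 FPKM in small pre-B cells. Those of regulatory T cells summed to 1.92 to 4.00 FPKM and those of erythroid cells to 1.06 to 27.3 FPKM over the 4 libraries, and the part of these lists in the results was not tested.

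**Figure D5:**
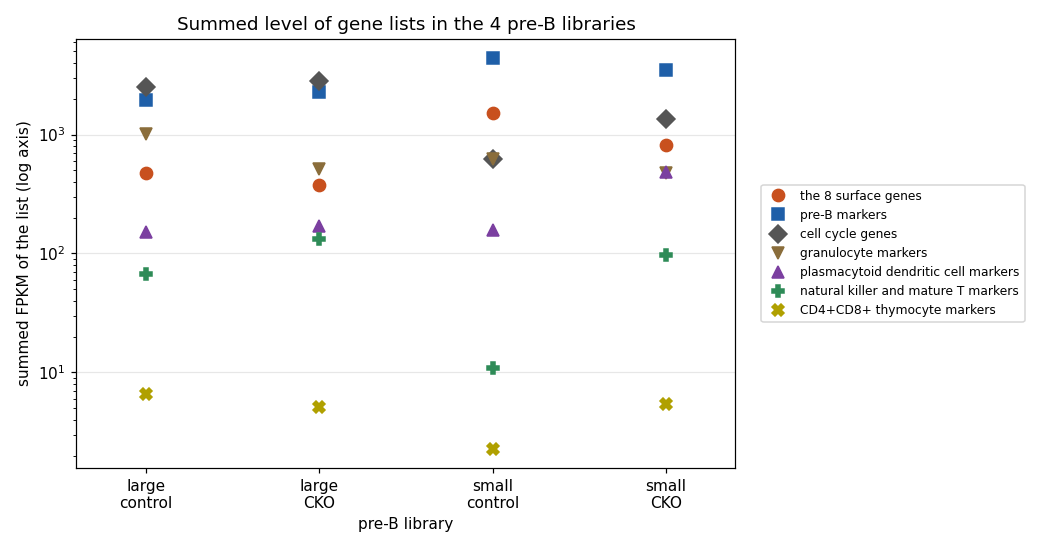
Summed FPKM (vertical log axis) of the 8 surface genes and of marker lists in the 4 pre-B libraries (horizontal axis), 1 point per list and library. The 8 genes sum to 478 and 377 FPKM in control and CKO large and to 1521 and 811 FPKM in small pre-B cells, while natural killer and dendritic cell markers are higher in CKO than in control small pre-B cells.

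Over the 10 libraries the 8 genes differed in how alike their patterns were. Pearson's r of log2(FPKM + 1), a description over libraries that share 2 pools and 5 populations, ran from −0.43 for Cd37 and Cd2 to 0.998 for Ms4a1 and Faim3. Cd22 and Cd72 stood at 0.994. Besides each other, Ms4a1 and Faim3 were most like Klhl14 and Tmem163, and Cd40 was most like Tmem163, Scn4a and S1pr1. Klhl14 stood at 1.75 and 0.664 FPKM in control and CKO large pre-B cells and at 25.5 and 8.25 FPKM in small pre-B cells. Both Cd22 and Cd72 had Blk, a kinase gene of B cell receptor signalling, among the 3 genes most like them, at 80.3 and 31.7 FPKM in large and 155 and 69.2 FPKM in small pre-B cells. Cd37 was most like Clec2d, Pla2g15 and Apobec1, Il2ra most like Kctd3, Amigo1 and Eaf2, and Cd2 most like Myzap, Chchd5 and Lpxn.

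Genes next to the 8 on the chromosome mostly had other levels. Ms4a13 and Ms4a5, on either side of Ms4a1, were listed at 0 in all 4 pre-B libraries, and Ncoa5, before Cd40, stood at 24.4 to 28.2 FPKM in them. Rbm17, before Il2ra, stood at 72.6 to 91.7 FPKM. Ffar1 beside Cd22 rose from the large to the small stage (1.17, limma adjusted p = 0.0065), as did Il15ra beside Il2ra (0.69, limma adjusted p = 0.015), and both are named after their values were seen. The neighbours Ncoa5, Sit1, Dkkl1, Rbm17, Ptgfrn and Igsf3 were tested and not called. Of all genes, 25.6% were called higher at this step.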

How the data were processed

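RNA was sequenced from 10 sorted cell pools, and per the submitters' processing notes TopHat2 2.0.8b, Cuffdiff 2.1.1 and the mouse build mm10 were used, with no role or option stated. The authors deposited 1 value per gene and library, read here as FPKM from the named tools and the values, since no label names the unit. Gene annotation and strand setting are not given in the sources used here. Of 23179 rows per library, 201 exact repeats were dropped, and for repeated symbols the row of highest mean stayed, which left 22923.

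Values were used as log2(FPKM + 1), which understates changes of low genes. An exact 0 can be a failed estimate, and such genes are described as listed at 0. Depth is not known, so no counting error is given. The limma-trend fit (limma 3.58.1, R 4.3.3) of the 8 lymphoid libraries held a mean, a stage and a genotype effect per lineage (2 residual degrees of freedom, 3.43 prior), and was tested on simulated data. Standard errors and intervals are from that fit, over 2 pairs of libraries per effect. Within a population 1 library was set against 1 with no test. Replicate animals were not sequenced separately. Alternatives were other filters, pseudocounts of 0.1 and 5, rescaling each library by its median ratio, 1 shared genotype effect and leaving out each library.

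The 8 genes and the 18 lists (226 entries, 221 found) were chosen with earlier results of these data known. Beside the 8 genes, the rule for names took the 3 most abundant genes of each list in pre-B cells, the gene with the largest stage difference and the 3 genes most like each of the 8, of which the text gives some. Other listed genes are given as examples by their role, and some listed genes are not reported here. Promoter sequences are from RefSeq and gene positions from GENCODE. Python 3.11.15, pandas 2.3.3, numpy 2.4.6 and matplotlib 3.10.9 were used.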

Additional observations from a re-analysis of the deposited data

Results flagged for a closer look

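The changes from cycling to resting cells in pre-B cells and in thymocytes were compared by a test of their difference in the limma fit. This test passed the threshold for 6 of the 8 genes, while 3.22% of all genes were called higher. On the log2 scale the difference (small minus large pre-B cells, less quiescent minus cycling thymocytes) was 3.60 for Ms4a1, 3.51 for Faim3, 2.97 for Cd40, 2.42 for Cd2, 2.35 for Il2ra and 1.01 for Cd72. Of these, Cd72 lay nearest the threshold. Cd22 (0.52) and Cd37 (0.17) were not called. None of the 8 genes was called without the filter on low values or with a genotype effect shared by the 4 populations. Some or all of the calls were lost whichever library was left out. Ms4a1, Cd40 and Faim3 were at or below 0.186 FPKM in all 4 thymocyte libraries, so that on the log2(FPKM + 1) scale their thymocyte effect was held near 0 and their difference restates the pre-B rise, while Il2ra (1.16 to 2.90 FPKM) and Cd2 (28.9 to 44.7 FPKM) had measurable levels in them.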

How the results depend on the processing

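The 7 rises from large to small pre-B cells were kept under both pseudocounts, both filters, the rescaling and the shared genotype effect. So were the higher levels of Cd72, Cd37 and Il2ra in pre-B cells than in thymocytes. With 5 FPKM in 2 libraries, however, Cd72 and Il2ra passed through pre-B libraries only and so had to differ. Ms4a1, Cd40, Cd22 and Faim3 also stayed higher in pre-B cells, which the main filter had fixed in advance, so this is no test. Other results moved, and the cause was not tested. With a pseudocount of 0.1, 1 of the 8 genes (Faim3) was called lower in quiescent thymocytes, 173 and 188 of all genes were called for the stage difference between lineages, 9 and 17 with 1 of the 8 for genotype in pre-B cells, and 14 and 15 for genotype in thymocytes (higher and lower). With a pseudocount of 5 these were 118 higher for genotype in pre-B cells, 25 and 24 for genotype in thymocytes, and 1 of the 8 genes at least 2-fold lower in large pre-B cells. Without a filter on low values 0 genes were called for the stage difference, for either genotype effect and for their difference. With 5 FPKM in 2 libraries 36 and 44 genes and 1 of the 8 were called for genotype in pre-B cells, and after rescaling 36 and 41 genes and 1 of the 8. With 1 shared genotype effect 0 of the 8, 0 higher and 1 lower gene were called for the stage difference, 3 and 1 genes and 0 of the 8 for genotype, and 0 of the 8 lower in pre-B cells than in thymocytes. The pre-B libraries alone, chosen after seeing the data, gave 255 and 273 genes and 6 of the 8 for genotype.

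Leaving out 1 library leaves 1 residual degree of freedom, with a lone pair assumed to vary like the other lineage. Counts then ran from 0 to 7 of the 8 genes, 0 to 2540 higher and 0 to 2321 lower genes for small minus large pre-B cells, and from 0 to 1 of the 8, 2 to 1901 and 1 to 1556 for thymocytes. They ran from 0 to 3 of the 8, 0 to 11 and 0 to 28 for the stage difference, 0 of the 8, 0 to 2 and 0 to 4 for genotype in pre-B cells, 0 to 2 and 0 to 3 in thymocytes, and 0 to 2 in each direction for the genotype difference between lineages. The fit already pairs libraries by pool, and the labels give no replicate numbers for a further block. With 1 pool per genotype, spread between animals was not measured.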
